A study of Mus musculus with 18 samples.

Results

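Broad methylated regions of the mouse heart were defined by width alone: the peaks of 18 MeDIP-seq libraries were merged wherever they overlapped by at least 1 base, and an autosomal merged region was kept when it spanned at least 4000 bases from its first to its last base. There were 641 such regions, which is 0.433% of the 148111 autosomal merged regions and 1.82% of their bases. A further 13 regions of that width lay on chromosomes X and Y and were set aside. Because the peaks of these same libraries set the widths, widths, peak numbers, library counts and scores are given as descriptions without a test. Comparisons between groups were made over libraries, since the group labels played no part in the choice. The libraries of 1 group can still have given a region its width. A difference at such a region is not free of the choice.

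The libraries came from myocardial tissue of 12-week-old male C57BL/6JR mice, with 3 mice and 3 libraries in each of 6 groups. Sham mice were anaesthetised and operated on, and a suture was passed without being tied. In the other groups the left anterior descending coronary artery was tied to produce a myocardial infarction (MI), and tissue was taken 10 min, 1 h or 6 h later, or 24 h or 72 h later. All 5 MI groups are compared with the same 3 sham libraries, so their results are not independent of one another. The labels give a single sham group for the 5 MI times, so the time since the operation and the MI cannot be told apart in these comparisons. Libraries are called replicate 1, 2 and 3 as labelled, and series of 3 values below follow that order. The labels name cardiomyocytes as the cell type without describing how cells were isolated. Peak lists hold no expression values, so the tissue was not checked against markers. If whole tissue was used, a shift in the mix of cells and a shift of methylation inside cells cannot be told apart.

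In mammalian DNA, methyl groups sit mainly on cytosines that are followed by guanine, written CG. In somatic tissues most CG sites are methylated, while the CG-rich promoters of widely used genes are usually not. Dense methylation is a known feature of transposons, satellite repeats and other repeated sequence, where it helps to keep them silent. MeDIP recovers fragments with an antibody that binds 5-methylcytosine, so a peak reflects both the number of CG sites and how many of them are methylated. A wide peak means that such fragments piled up over a long stretch, and it gives no methylation percentage for any cytosine.

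No genome sequence was used here, but 54 RefSeq promoter windows of 48 genes (250 bases before to 50 bases after the start of the gene, build GRCm38.p6) touched a broad region. The windows printed here are those that show best how these regions differ from one another, and each is written 5′ to 3′ along the strand of its gene with every CG in capitals. Sp110 (chr1:85598761-85599060, minus strand) lies in the widest region of all. Duxf3 (chr10:58233040-58233339, minus strand) was under a peak over its whole length in all 18 libraries and holds only 3 CG. Jade1 (chr3:41555484-41555783, plus strand) was whole under a peak in 17 libraries. 3110070M22Rik (chr13:119488335-119488634, minus strand) holds 48 CG. Gm36327 (chr6:47675332-47675631, plus strand) and Gm52861 (chr6:47738587-47738886, plus strand) are near copies of each other in 2 broad regions of 1 cluster.
Sp110: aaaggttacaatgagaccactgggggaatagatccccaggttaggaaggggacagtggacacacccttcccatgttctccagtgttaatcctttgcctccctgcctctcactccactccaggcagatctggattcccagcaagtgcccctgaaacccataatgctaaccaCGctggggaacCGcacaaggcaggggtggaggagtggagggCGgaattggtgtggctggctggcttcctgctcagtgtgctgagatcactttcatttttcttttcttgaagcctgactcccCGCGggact
Duxf3: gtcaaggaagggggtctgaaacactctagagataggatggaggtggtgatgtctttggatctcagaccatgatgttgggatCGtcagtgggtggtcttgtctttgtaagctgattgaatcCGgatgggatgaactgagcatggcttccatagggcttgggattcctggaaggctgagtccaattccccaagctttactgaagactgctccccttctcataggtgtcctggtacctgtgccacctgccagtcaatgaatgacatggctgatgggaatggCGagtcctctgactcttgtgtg
Jade1: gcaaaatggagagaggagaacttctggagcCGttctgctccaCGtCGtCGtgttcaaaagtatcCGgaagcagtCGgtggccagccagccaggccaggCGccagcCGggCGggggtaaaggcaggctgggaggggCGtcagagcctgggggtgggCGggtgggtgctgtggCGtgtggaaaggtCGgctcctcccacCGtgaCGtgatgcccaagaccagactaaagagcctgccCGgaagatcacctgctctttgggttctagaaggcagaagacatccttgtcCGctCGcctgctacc
3110070M22Rik: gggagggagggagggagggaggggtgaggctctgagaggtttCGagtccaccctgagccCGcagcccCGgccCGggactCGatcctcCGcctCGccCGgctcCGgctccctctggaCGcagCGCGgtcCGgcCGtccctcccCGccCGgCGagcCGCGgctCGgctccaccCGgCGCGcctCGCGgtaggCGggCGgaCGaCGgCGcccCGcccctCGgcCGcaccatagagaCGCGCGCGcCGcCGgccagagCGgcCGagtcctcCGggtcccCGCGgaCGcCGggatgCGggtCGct
Gm36327: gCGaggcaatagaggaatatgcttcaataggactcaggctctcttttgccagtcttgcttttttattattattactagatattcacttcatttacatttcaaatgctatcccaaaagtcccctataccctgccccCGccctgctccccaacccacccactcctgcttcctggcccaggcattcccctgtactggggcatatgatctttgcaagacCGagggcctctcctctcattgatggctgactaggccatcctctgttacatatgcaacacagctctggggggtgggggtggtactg
Gm52861: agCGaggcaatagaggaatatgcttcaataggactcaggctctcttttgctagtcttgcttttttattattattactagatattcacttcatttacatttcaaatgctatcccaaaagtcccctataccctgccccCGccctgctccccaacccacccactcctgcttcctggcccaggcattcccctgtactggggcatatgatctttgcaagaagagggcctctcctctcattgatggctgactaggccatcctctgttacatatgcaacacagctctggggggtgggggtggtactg

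The last pair shows a feature that many of these windows share, which is sequence found again elsewhere. The windows of Gm36327 and Gm52861 are 98.7% identical and hold 3 and 2 CG. Despite that likeness, the first was whole under a peak in 7 libraries and the second in 15. How reads that fit several places were assigned is not given in the sources used here, so the coverage of any 1 copy is uncertain.

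Broad regions had a median width of 4728 bases, with quartiles of 4241 and 5430 bases and a longest region of 10819 bases. The 163 regions of 4000 to 4249 bases made up the fullest bin of 250 bases. Counts then fell to 56 at 4750 to 4999 bases, held at 58 in each of the next 2 bins, and dropped to 23 in the bin that starts at 5500 bases. A further rise stood at 6750 to 6999 bases with 28 regions and at 7000 to 7249 bases with 22, after 7 regions at 6000 to 6249 bases. In all, 262 regions reached 5000 bases and 71 measured 6500 to 7499 bases. Around the threshold itself, the narrowest members were a region near Gm31055 of 4001 bases, 1 in Wdr31 of 4002 and 1 near Adra1a of 4002. The widest regions left out were near Kalrn, 1 base under the limit, and near Gm30931 and Gm2449 with 3998 bases each. The 2 sides of the threshold therefore differ by a few bases.

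A region could pass the width rule through a single wide peak or through shorter peaks of different libraries laid end to end. A single peak of at least 4000 bases was present in 448 of the 641 regions (69.9%), and 193 held none. In the narrowest bin only 41 of 163 regions held a peak that wide, against 25 of 28 at 6750 to 6999 bases. Such a wide peak occurred in exactly 1 library in 170 regions, in at least 9 libraries in 34 and in all 18 libraries in 5. The label of a broad region thus covers both stretches that are broad in most hearts and stretches that are broad in 1 heart.

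**Figure D1:**
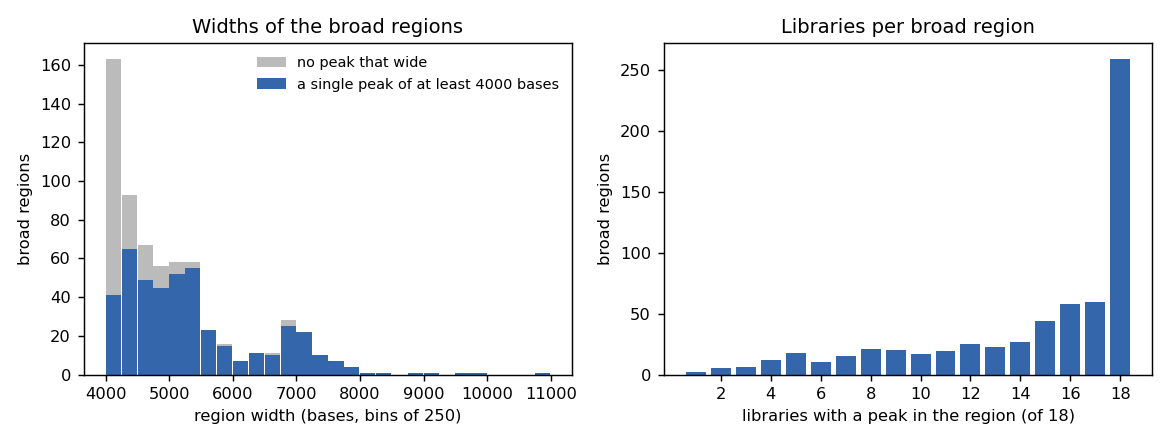
Left, number of broad regions by width in bins of 250 bases, with the regions that held a single peak of at least 4000 bases in blue; right, number of broad regions by how many of the 18 libraries had a peak in them. Regions of 4000 to 4249 bases were the most numerous (163, of which 41 held such a peak), and 259 regions had a peak in all 18 libraries.

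Most broad regions were detected in most libraries. The median region had a peak in 16 of 18 libraries, 552 regions had one in at least 9 libraries and 259 (40.4%) in all 18. For comparison, mid-width regions are the 11169 autosomal merged regions of at least 2000 but under 4000 bases. Of these, 30.3% had a peak in all 18 libraries, and among all autosomal merged regions 5.08% had one. Only 2 broad regions came from a single library and 5 from a pair. Detection in all libraries was not the same as coverage in all libraries: 229 regions held bases that lay under a peak in every library, and the median region had 49.2% of its width under peaks of at least 9 libraries.

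The highest peak score in a region had a median of 136 for broad regions, 121 for mid-width regions and 76.9 for all autosomal merged regions. Scores are the values the authors deposited with their peaks, and none is under 50. In 139 broad regions no peak reached a score of 100, so width did not always come with a high score. Within libraries, the median peak inside broad regions measured between 1826 and 3026 bases, against 819 to 1131 bases for the other autosomal peaks. The difference in peak width follows from the rule, because wide peaks make wide regions. The highest score is taken over all peaks of a region, and the median number of libraries with a peak also differed. It was 16 for broad regions, 14 for mid-width regions and 3 for all autosomal merged regions. The part of library number in the scores was not tested.

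The place of broad regions in genes is a description, with no test of the difference from other regions. The midpoint fell in a protein-coding gene for 34.9% of broad regions, against 49.6% of mid-width regions and 49.9% of all autosomal merged regions. It fell in no gene for 56.3%, against 42.4% and 41.0%, and in a pseudogene for 4.06%, against 2.08% and 1.57%. By any overlap, 315 broad regions touched a gene and 326 touched none, the latter with a median distance of 17.2 kb to the nearest gene. The genes touched numbered 334, of which 236 were protein-coding, or 1.14% of the 20665 autosomal protein-coding genes. Of 163 regions whose midpoint could be placed along a protein-coding gene, 22 lay in the first of 4 equal parts of the gene by the direction of transcription and 55 in the last. That position was not computed for mid-width or all merged regions, so it cannot be called particular to broad regions.

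The heart muscle lists were too short to show whether their genes held broad regions more or less often than other genes. Of 20 contractile genes, 17 held some merged region and 1 a broad one, Ttn, which encodes titin, the giant elastic protein of the sarcomere. Of 15 calcium-handling genes, 14 held a merged region and 1 a broad one, Itpr2, an inositol trisphosphate receptor that releases calcium from internal stores. None of 20 cardiac transcription factor genes, of 39 imprinted genes found, of 20 leukocyte, 10 fibroblast or 10 endothelial marker genes held a broad region. Some merged region was held by 13, 36, 11, 8 and 9 of them, in that order. Gene families were picked by symbol. Their counts were 10 of 483 zinc finger protein genes (2.07%) and 3 of 623 vomeronasal receptor genes (0.482%). They were 1 of 42 collagen genes (Col23a1, 2.38%) and 1 of 1103 microRNA genes (Mir7226, 0.0907%). Some merged region was held by 395, 66, 41 and 192 genes of these families, in that order. Zinc finger genes with other kinds of symbols, such as Rlf and Hivep2, are not in the zinc finger counts. No broad region touched any of 58 clustered protocadherin genes, 1420 olfactory receptor genes, 43 Hox genes or 96 potassium channel genes. Of these, 54, 153, 8 and 87 held some merged region, so most olfactory receptor and Hox genes held none of any width. The shares were 5.0% of contractile genes and 6.67% of calcium-handling genes, from 1 gene each, and 0.0% of cardiac transcription factor genes. Beside the 1.14% of all protein-coding genes, these shares are descriptions of short lists.

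Titin held 2 broad regions that behaved differently. The first (chr2:76708652-76713087, 4436 bases) had peaks in 13 libraries. Its covered length was 2786, 2748 and 0 bases in sham, 2710, 0 and 3570 at 10 min and 2745, 2912 and 3504 at 1 h. The 6 h libraries had 4337, 0 and 0 bases, the 24 h libraries 2534, 3736 and 0, and the 72 h libraries 3919, 4253 and 3854. The 72 h libraries therefore all lay above sham, with means of 4009 ± 214 and 1845 ± 1598 bases (SD, n = 3 each). In limma the difference was 48.8 percentage points of the width (adjusted p = 0.816), which did not pass. The second region (chr2:76736022-76741696, 5675 bases) had peaks in only 2 libraries, both at 72 h, with 2235 and 5656 bases, and none in 72 h replicate 3.

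Itpr2 also held 2 broad regions, both made of shorter peaks. In the one at chr6:146326317-146330689 (4373 bases) sham libraries had 2357, 3918 and 3538 covered bases. The 10 min libraries had 2179, 0 and 2078 bases, the 1 h libraries 1278, 933 and 0, and the 6 h libraries 1661, 2133 and 0. The 24 h libraries had 1627, 2173 and 0 bases and the 72 h libraries 1740, 3247 and 1801. All libraries of the first 4 MI times thus lay below the lowest sham library, while 72 h overlapped sham. The largest of the 4 differences in limma was -57.9 percentage points at 1 h (adjusted p = 0.936). At chr6:146312379-146316491 (4113 bases) the longest peak measured 1991 bases, sham libraries had 0, 1787 and 1528 covered bases, and the 24 h libraries had none.

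Several genes of the cytoskeleton held broad regions. They are named for their known roles, after their values could be seen. Eppk1, which encodes the intermediate filament linker epiplakin, had the most even coverage of these. Its region (chr15:76101697-76106305, 4609 bases) was covered over 4086 to 4543 bases in the 18 libraries, and a stretch of 3910 bases lay under a peak in every one. Plec, for the related linker plectin, lay close by (chr15:76171930-76176235, 4306 bases) with a median of 3174 covered bases, and 1 library at 10 min had none. Synm, which encodes the muscle intermediate filament protein synemin, had a median of 2342 covered bases of 4263 and at least 1651 in each library. Palld, for the actin-binding palladin, had 2994 of 4261 bases at the median and none in 2 libraries. Sptb, for beta-spectrin, had between 1163 and 4020 of 4281 bases. Apart from Eppk1 these regions varied between mice of the same group.

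Genes of metabolism showed the same range from constant to sporadic. Prkaa1, for a catalytic subunit of AMP-activated kinase, had a median of 2809 covered bases of 4528 and peaks in 16 libraries. Prkab2, for a regulatory subunit of the same kinase, had peaks in 9 libraries and a median of 309 covered bases of 4412. Fasn, for fatty acid synthase, had peaks in 6 libraries, and Xdh, for xanthine dehydrogenase, in all 18 with 1393 to 4226 covered bases of 4463. A broad region in a gene therefore did not mean a broad peak in each mouse.

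Of the zinc finger protein genes picked by symbol, Zfp790 had the longest stretch shared by all libraries. In its region (chr7:29824552-29830417, 5866 bases) 2271 bases lay under a peak in every library, and coverage ran from 2271 to 5777 bases. Zfp277 and Zfp69 were also covered in all 18 libraries, with 838 and 795 bases common to all. Zfp978 held 2 regions, of which 1 was found in 3 libraries alone (3329 bases in sham replicate 3, 3978 at 1 h replicate 3 and 7629 at 24 h replicate 1) and the other in all 18. Zfp423, a transcription factor gene, and Zbtb38, which encodes a reader of methylated DNA, had peaks in 16 and 14 libraries. The zinc finger members thus fell at both ends of the range, like the rest.

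The widest region of all lay across Sp110 and Sp140 (chr1:85590199-85601017, 10819 bases), genes of interferon-inducible nuclear body proteins. It consisted of 39 peaks, of which the longest measured 5895 bases, and 4216 bases lay under a peak in every library. Coverage was 5641, 7516 and 9606 bases in sham, 8528, 7814 and 6730 at 10 min and 6361, 6193 and 4995 at 1 h. The 6 h libraries covered 7426, 9038 and 7495 bases, the 24 h libraries 6383, 7231 and 7657, and the 72 h libraries 5403, 7685 and 7377. Every group overlapped sham here. The window of Sp110 printed above was whole under a peak in 15 libraries and that of Sp140 in 5. A second broad region in Sp110 (chr1:85581597-85586399, 4803 bases) had peaks in 17 libraries, with 0 bases in 24 h replicate 1.

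The next widest regions were less regular. In Plcd3, a phospholipase C gene (chr11:103083115-103093010, 9896 bases), sham had 1930, 3636 and 4064 covered bases, and 1 h had 0, 1007 and 0. The region over Gm46353 (chr12:69546663-69556258, 9596 bases) had peaks in all 18 libraries, with 2825 to 7334 covered bases, but no base common to all. Ank3, the gene of the membrane scaffold ankyrin-G (chr10:69985358-69994561, 9204 bases), had 1290, 6493 and 1400 bases in sham and none in any 10 min library. No base of the Ank3 region lay under a peak in 9 libraries. The remaining regions of the widest 10 were near 4930405D11Rik, near H4c17, near Gm32719, and in Malrd1 with Gm37416, Rsrc1 and Gm41844, with widths of 7941 to 8980 bases. The region near H4c17 (8402 bases) had peaks in 6 libraries and none in sham or at 6 h.

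**Figure D2:**
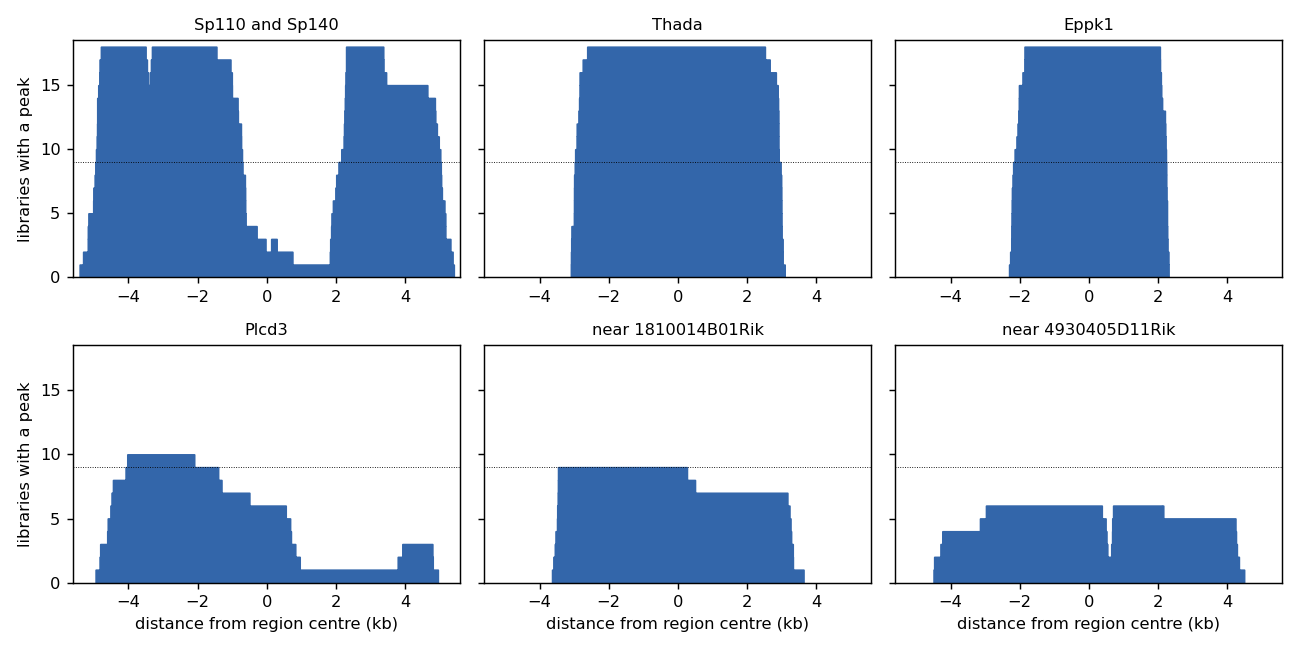
Number of libraries (of 18) with a peak at each base, against the distance from the centre of the region in kb, for 6 broad regions; the dotted line marks 9 libraries. The Thada and Eppk1 regions show a plateau at 18 libraries, the Sp110 and Sp140 region reaches 18 libraries over 4216 bases in separate stretches, and the other 3 regions reach at most 10 libraries (Plcd3), 9 (near 1810014B01Rik) and 6 (near 4930405D11Rik).

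The longest stretch under a peak in all 18 libraries measured 5134 bases and lay in Thada (chr17:84458644-84464823, 6180 bases). Its coverage was 5831, 5437 and 5862 bases in sham and between 5647 and 6092 in the MI libraries. A region near Pisd-ps1 followed (chr11:3099876-3106165, 6290 bases) with 4530 bases in common. A region near Gm9637 (chr14:19414950-19419899, 4950 bases) had 4325 bases in common, and the median score of its peaks was 3100, which is the highest score among broad regions. A region near Gm3318 (chr10:3110938-3117361, 6424 bases) had 4228 bases in common, and Eppk1, with 3910 bases, came next. Coverage of these 5 regions varied little between mice, and differences stayed small where groups lay apart. In Eppk1 every library of the last 3 times (6 h and later) lay above sham, with means of 4388, 4391 and 4407 bases against 4216.

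Peaks with a score of at least 500 marked another set, singled out after the scores were seen. It includes Gm10222 and Gm10925 (chr1:24611035-24616311), which lie in nuclear DNA copied from the mitochondrial genome, with a highest score of 1046 and 3347 to 5277 covered bases of 5277. It includes Rn18s-rs5 with AY036118 (chr17:39842693-39849166), a copy of ribosomal RNA sequence, with a highest score of 1262. There, 5 libraries of 5 different groups had 6154 to 6375 covered bases and the other libraries 2362 to 3693 of 6474. Duxf3, a copy of the double homeobox gene family that acts in early embryos, reached 590 and Sfi1, a centrin-binding spindle gene, 596. Tmem267 with 3110070M22Rik reached 852, and a region near Gm33780 reached 1311.

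**Figure D3:**
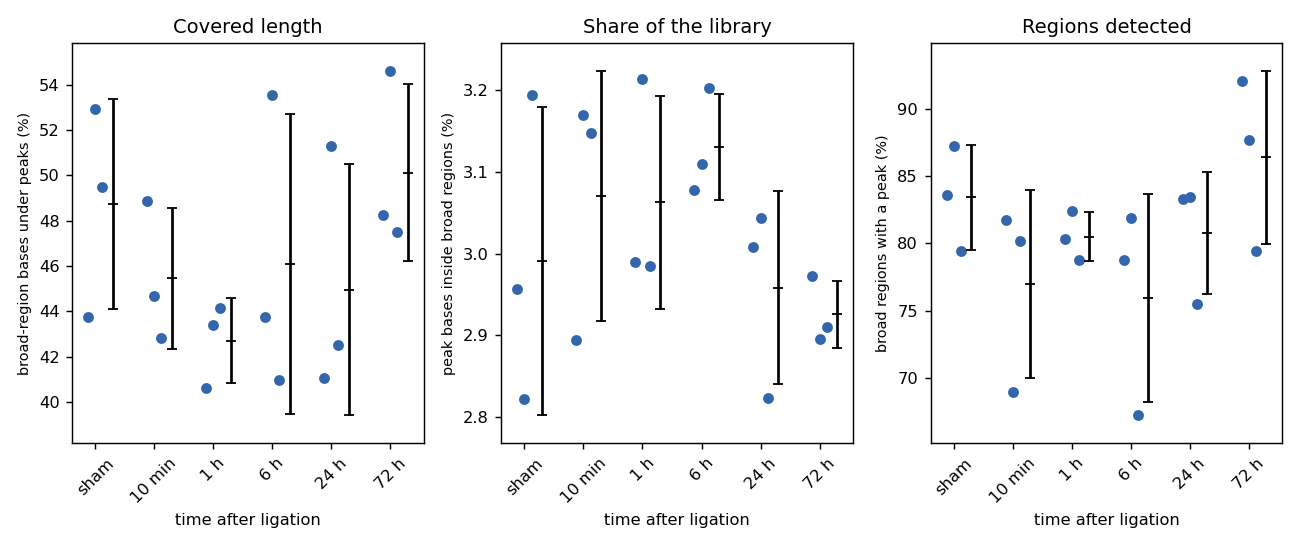
Broad regions in each of the 18 libraries: percent of the bases of the 641 regions under peaks (left), percent of the autosomal peak bases of the library that lie in them (middle) and percent of the regions with a peak (right), by group. Points are libraries, and black bars are the mean ± SD of 3 libraries; the y axes do not start at 0. All groups overlap sham in each panel.

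Some broad regions reached promoter windows: 44 of the 641 regions (6.86%) touched a window, against 2.84% of mid-width regions and 1.72% of all autosomal merged regions. A wider region has more room to touch a window, and the share was not corrected for width. The 54 windows held a median of 8 CG, against 7 in the 31396 autosomal windows and 6 in the 2826 that touched any merged region. Every one of the 54 held the motif CG, which reads the same on both strands, whereas 5.25% of all autosomal windows held none. At least 20 CG were found in 7 of the 54 (13%), against 27% of all autosomal windows and 3.47% of those touching any merged region. The richest were windows of Tmem267 with 50 CG and 3110070M22Rik with 48, which overlap each other on opposite strands in 1 region of chromosome 13.

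These 2 CG-rich windows were partly covered. The window of 3110070M22Rik was touched by a peak in 18 libraries and whole under a peak in 11. That of Tmem267 with 50 CG was whole under a peak in 8 libraries, 1 or 2 in each group. Jade1, which encodes a subunit of histone acetylation complexes, holds 18 CG in its printed window, and 24 h was the only group with a library that left part of it uncovered. Windows whole under a peak in all 18 libraries were those of Duxf3, A630077J23Rik, Gm14329 and Gm40504, with 3, 16, 12 and 4 CG. Coverage of a window thus came with few and with many CG.

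Repeated sequence was common among these windows. In 29 of the 54 (53.7%), at least 50% of all runs of 20 bases occurred again in another promoter window that does not overlap it, against 4.21% of all autosomal windows, 4.35% of windows touching mid-width regions and 4.42% of windows touching any merged region. Aligned with each other, 17 of the 54 windows fell into 6 groups of at least 80% identity, and the same 17 windows and 6 groups were found at 90% identity, a limit added after the first result. Gm41844, Gm40378, Gm45978 and Gm45988, on 3 chromosomes, were 98.0% to 99.7% identical and held 12 to 14 CG. Gm46754, Gm46854, Gm46950 and Gm40405, also on 3 chromosomes, were 98.3% to 99.7% identical and held 6 CG each. Their regions measured 6745 to 6983 bases. Gm46911, Gm52787 and Gm52796 on chromosome 5 were at least 98.0% identical, in regions of 5329 to 5415 bases. The other groups were pairs, with 92.4% to 98.7% identity.

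Members of a group of near copies did not have the same coverage. Gm46754 (chr2:94800995-94807739) had peaks in 8 libraries, none of them sham, with up to 6745 bases in 24 h replicate 2. Gm46854 (chr4:51871362-51878217) had peaks in 6 libraries, none of them sham, with up to 6672 bases in 24 h replicate 1. Gm46950 (chr6:7718988-7725768) had peaks in 9 libraries with 3914 bases in sham replicate 2 and none in the other sham libraries. Gm40405 (chr6:132963454-132970436) had peaks in 14 libraries, with 4279, 6408 and 2733 bases in sham and 0, 0 and 0 at 6 h, a difference that was 0 with an equal number of top-scoring peaks or with a score of at least 100. The near copies therefore differed in which libraries covered them, with the uncertainty over shared reads given above. No repeat annotation was used here, so how many broad regions are transposons or other repeats was not tested.

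Genes lying wholly inside a broad region numbered 35, and 32 of them carry placeholder symbols. Many of these are pseudogenes of similar length in regions of similar width. Gm51636 (5275 bases long) lay in a region of 7171 bases, Gm47761 (5101 bases) in 1 of 6776, Gm47939 (5275 bases) in 1 of 7181, Gm52638 (5090 bases) in 1 of 7012 and Gm46861 (5093 bases) in 1 of 6856. These 5 regions had peaks in 10, 15, 5, 15 and 14 libraries. Duxf3, Rn18s-rs5 and Mir7226 were the 3 genes inside a region with a settled symbol.

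Broad regions also occurred near one another. Linking regions less than 1 Mb apart gave 22 clusters of at least 4 regions, which together held 112 of the 641, while 320 regions had no other within 1 Mb. The largest cluster had 10 regions on chromosome 7 between 20308465 and 23316303 and touched Nlrp4e, an NLR family gene active in oocytes. A cluster of 8 regions on chromosome 1 (83229434 to 85601017) held Sp110 and Sp140. Chromosome 11 (3099876 to 4052339) held 7 regions, 5 of them in Sfi1, and chromosome 12 (19046607 to 20717405) held 7. The densest had 6 regions within 109 kb of chromosome 6 (47664425 to 47773252) and held the 2 near copies Gm36327 and Gm52861. By chromosome, broad regions made up 0.239% of merged regions on chromosome 19 and 0.515% on chromosome 8. The first 8 Mb of the chromosomes, the end near the centromere in the mouse, held 7.80% of broad regions and 3.69% of all autosomal merged regions.

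The 5 regions in Sfi1 differed widely in coverage. The region at chr11:3188457-3196138 (7682 bases) had 3576 bases common to all 18 libraries. The region at chr11:3132934-3139281 (6348 bases) had peaks in 4 libraries, with 6204 bases in 1 h replicate 3, 5873 in 6 h replicate 2, 2949 in 24 h replicate 1 and 4553 in 72 h replicate 1. The others had peaks in 8, 12 and 15 libraries. Fat1, which encodes an atypical cadherin, held 2 regions that were both detected in all 18 libraries, with 2571 and 1992 bases common to all.

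The first comparison between groups asked whether broad regions as a whole were covered more or less after MI. Libraries covered 40.6% to 54.6% of the bases of the 641 regions. The sham mean was 48.7% ± 4.63, the 10 min mean 45.5% ± 3.10 and the 1 h mean 42.7% ± 1.86. The 6 h mean was 46.1% ± 6.60, the 24 h mean 45% ± 5.55 and the 72 h mean 50.1% ± 3.91, each given with its SD over 3 libraries. The share of the variance between libraries that lay between groups was 0.302 (permutation p = 0.429, and 0.429 adjusted over 3 measures). The largest difference from sham was -6.02 percentage points at 1 h (two-sided exact permutation p = 0.2, adjusted p = 0.667 over 5 times), and the smallest p this design allows is 0.1. The peak lists held 34255 to 60653 peaks. The shortest list (6 h replicate 3) covered 41.0% of the broad regions and the longest (72 h replicate 2) 54.6%, and the part of list length in the covered percent was not tested. The sequencing depth is unknown, since the lists give no read counts, and no counting error can be given for any value.

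Set against the autosomal peak bases of each list, broad regions held a similar share in all libraries. Between 2.82% and 3.21% of the autosomal peak bases of a library lay in them. The list with the fewest peaks (6 h replicate 3) had 3.20% and the one with the most (72 h replicate 2) 2.90%. The part of peak number in this share was not tested. The sham mean was 2.99% ± 0.189, the 10 min mean 3.07% ± 0.153 and the 1 h mean 3.06% ± 0.131. The 6 h mean was 3.13% ± 0.0651, the 24 h mean 2.96% ± 0.118 and the 72 h mean 2.93% ± 0.0408, again with the SD over 3 libraries. Here 0.319 of the variance lay between groups (permutation p = 0.401, adjusted to 0.429). The share of broad regions with a peak ran from 67.2% to 92.0% of the 641, and 0.376 of its variance lay between groups (permutation p = 0.272, adjusted to 0.429). Across the 5 times, the exact permutation p against sham ran from 0.2 to 1.0 for covered percent and share of the list, so no difference exceeded the spread between libraries by this test.

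Region by region, limma found no broad region that passed in any comparison. It was fitted on the percent of each region under peaks for 84637 autosomal regions with a peak in at least 3 libraries, 634 of them broad, and p was adjusted over all 84637. Over all regions the percent called was 0.0% at each time except 6 h, where it was 0.00118% (1 region) and 0.00354% for any difference among the 6 groups (3 regions). At an unadjusted p under 0.05, limma gave 21 broad regions at 10 min (3.31%, against 5.33% of all regions) and 16 at 1 h (2.52%, against 4.8%). It gave 25 at 6 h (3.94%, against 5.81%), 16 at 24 h (2.52%, against 5.35%) and 21 at 72 h (3.31%, against 6.09%). For any difference among groups, 19 broad regions (3.0%) had an unadjusted p under 0.05, against 4.83% of all.

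With other settings limma called between 0 and 1 broad region. With all 148111 regions in the fit, Stpg4 (chr17:87418156-87422836) passed for any difference among groups (limma adjusted p = 0.0214). With covered bases on the scale log2(bases + 100), Myl12b passed at 72 h (limma adjusted p = 0.0475) and Gm40405 for any difference among groups (limma adjusted p = 0.0306). On that scale, 51 of 634 broad regions had an unadjusted limma p under 0.05 at 10 min, against 4454 of all 84637. The counts were 52 against 4065 at 1 h, 64 against 4676 at 6 h, 46 against 4605 at 24 h and 38 against 5254 at 72 h. For any difference among groups they were 71 and 4728. The broad share thus lay above that of all regions except at 72 h, so the order of the shares depended on the scale. With lists cut to the same number of peaks by score, no broad region passed.

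Counts of regions whose 3 libraries all lay above or all below the 3 sham libraries are given as descriptions without a test. At 10 min there were 47 such broad regions (7.33%), 24 higher (3.74%) and 23 lower (3.59%). At 1 h there were 58 (9.05%), 16 higher (2.5%) and 42 lower (6.55%), and at 6 h 55 (8.58%), 30 higher (4.68%) and 25 lower (3.9%). At 24 h there were 51 (7.96%), 25 higher (3.9%) and 26 lower (4.06%), and at 72 h 49 (7.64%), 31 higher (4.84%) and 18 lower (2.81%). The balance moved with the libraries and peaks used. Without sham replicate 1, more were lower at all 5 times, where the 10 min libraries gave 33 higher and 76 lower, the 1 h libraries 24 higher and 118 lower, the 6 h libraries 45 and 74, the 24 h libraries 37 and 85, and the 72 h libraries 45 and 65. With an equal number of top-scoring peaks in every library, the 10 min libraries gave 19 higher and 11 lower, 1 h 19 and 28, 6 h 35 and 11, 24 h 23 and 25, and 72 h 22 and 23. Counts under these settings were not made for mid-width or all merged regions, so the shifts cannot be called particular to broad regions. With all libraries and peaks, the shares over all autosomal merged regions were 2.74%, 2.86%, 2.98%, 2.96% and 3.37%. The median region among them had a peak in only 3 libraries.

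Mid-width regions, which are also detected in most libraries, are the closer comparison. Their shares were 7.49%, 7.61%, 8.02%, 6.92% and 7.48% at the 5 times, near those of broad regions. At 1 h, 5.49% of them were lower and 2.12% higher, so the tilt towards lower values at that time was shared by narrower regions. Over all autosomal merged regions at 1 h, 1.96% were lower and 0.903% higher. At 10 min the higher and lower shares were 3.7% and 3.79% of mid-width regions and 1.23% and 1.51% of all regions. At 6 h they were 4.61% and 3.41% of mid-width regions and 1.54% and 1.45% of all. At 24 h the mid-width shares were 2.64% and 4.28%, beside 1.23% and 1.74% of all, and the 72 h shares were 3.7% and 3.78%, beside 1.68% and 1.7%.

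**Figure D4:**
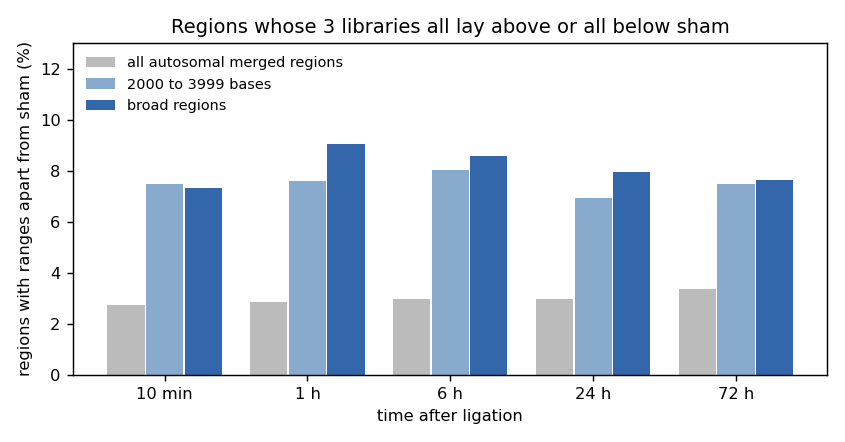
Percent of regions whose 3 libraries at a time after ligation all lay above or all below the 3 sham libraries, for all 148111 autosomal merged regions, for mid-width regions (at least 2000 but under 4000 bases) and for the 641 broad regions. Broad regions stand at 7.33% to 9.05%, close to mid-width regions (6.92% to 8.02%) and above all regions (2.74% to 3.37%).

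Among regions apart from sham, the largest loss of mean covered length was near 1810014B01Rik at every time except 6 h (chr10:86676032-86683301, 7270 bases). Sham libraries had 6745, 6792 and 7099 covered bases (6879 ± 192, SD, n = 3). The 10 min libraries had 6689, 0 and 0 bases, and no 1 h library had any. The 6 h libraries had 6817, 0 and 6877 bases, the 24 h libraries 4091, 3897 and 0, and the 72 h libraries 6651, 0 and 0. The MI libraries thus held either most of the width or nothing, apart from 2 at 24 h, and 6 h overlapped sham. At 1 h limma gave -94.6 percentage points of the width (95% interval -155 to -34.5, adjusted p = 0.936). The fit sets no bounds on the percent, so this interval runs past a loss of the whole width, which is the largest possible. With an equal number of top-scoring peaks in every library, the difference in mean covered bases at this region was -18.7 at 10 min, -2248 at 1 h, -949 at 24 h and -31.3 at 72 h, and with peaks of a score of at least 100 alone it was 0 at each of these times.

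Other large differences at 10 min and 1 h were in or near Abcc4, Gm39312, Gm8948 and Abca13. In Abcc4, which encodes an exporter of cyclic nucleotides (chr14:118635774-118640281, 4508 bases), sham had no covered base in any library. The values there were 4310, 3337 and 3807 bases at 10 min and 1955, 1813 and 3415 at 1 h, and then 2130, 2994 and 2112 in 1 library each at 6 h, 24 h and 72 h. Limma gave 84.7 percentage points at 10 min (95% interval 29.4 to 140, adjusted p = 0.912), again with an interval that runs past the whole width. The MI libraries alone gave this region its width, so its difference from sham is not free of the choice. The adjacent broad region of Abcc4 (chr14:118628976-118633138), by contrast, had 3306, 1980 and 1976 bases in sham. A region near Gm39312 (chr9:25856957-25863786) had 0 bases in sham and 2739, 6756 and 4025 at 10 min, and a region near Gm8948 (chr10:40320030-40324582) had 1609, 1516 and 0 in sham and 2879, 3403 and 4464 at 1 h. Abca13, a lipid transporter gene (chr11:9443926-9451062, 7137 bases), had 2795, 6715 and 4582 bases in sham, 0, 0 and 2779 at 1 h and 0, 0 and 0 at 6 h. With an equal number of top-scoring peaks the Abca13 difference was -5.33 bases at 1 h and -932 at 6 h, against -3771 and -4697 with all peaks.

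At 6 h the largest gains among regions apart from sham were near Vmn2r-ps49 (chr7:8593396-8597880) and near Gm12632 (chr4:90874917-90881692). The first had 1188, 988 and 0 covered bases in sham and 3792, 4101 and 3693 at 6 h (725 ± 636 and 3862 ± 213, SD, n = 3 each). The second had 1617, 1598 and 1626 in sham and 4537, 2788 and 5033 at 6 h. Neither passed in limma (adjusted p = 0.849 and 0.88).

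At 24 h the largest gains among regions apart from sham were near AB010352 (chr5:109902714-109908127) and in Bcl7a (chr5:123369160-123374136). Bcl7a encodes a subunit of the BAF chromatin remodelling complex. Near AB010352 sham had 3811, 0 and 0 bases, 24 h had 4321, 5295 and 5240, and 72 h had 5192, 5088 and 3854. In Bcl7a sham had 0, 845 and 0 bases, and 24 h had 2351, 3682 and 4974. Among regions apart from sham, the second largest loss at 24 h, after the region near 1810014B01Rik, was near Pramel47 (chr5:95370652-95378072). Coverage there went from 2431, 7002 and 7084 bases in sham to 1491, 2369 and 1456. Each of these lay apart from sham, and none passed in limma (adjusted p = 0.912 for all 3).

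At 72 h a region near Gm25976 (chr15:19998778-20005737) had 0 bases in sham and 2833, 5269 and 6769 at 72 h, and a region near Gm6991 (chr10:50420674-50427587) had 0 in sham and 3110, 3956 and 5079. Myl12b, which encodes a regulatory light chain of non-muscle myosin (chr17:70972691-70978549, 5859 bases), had 2871, 4439 and 5111 bases in sham and 1179, 2225 and 942 at 72 h. It was detected in all 18 libraries, and 6 h (2218, 3333 and 1555) overlapped sham. Limma gave -45.9 percentage points at 72 h (95% interval -87.4 to -4.5, adjusted p = 0.816). With peaks of a score of at least 100 alone the difference at 72 h was 393 bases, of the opposite sign to the loss in all peaks.

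Most of these differences became smaller when fewer peaks were used. Over the 20 differences of named regions, 17 were 0 bases with peaks of a score of at least 100 alone, and the others were 393 for Myl12b, -313 near Pramel47 and 2302 near Vmn2r-ps49. With an equal number of top-scoring peaks none of the 20 changed sign, 2 were 0 and 11 more shrank by over 1.5 times. The 2 at 0 were Gm40405 at 6 h, -4473 with all peaks, and the region near Gm25976 at 72 h, 4957 with all peaks. Abcc4 went from 3818 to 2381 at 10 min, Ank3 from -3061 to -897 at 10 min, Gm8948 from 2540 to 1052 at 1 h, Gm12632 from 2506 to 597 at 6 h, and Gm6991 from 4048 to 1693 at 72 h.

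The 5 broad regions with the smallest limma p over the 6 groups showed different patterns. Near Gm41394 (chr15:97554773-97558859, 4087 bases) coverage was 3183, 3765 and 3131 bases in sham and 1702, 1693 and 1763 at 24 h, and limma gave -40.1 percentage points (adjusted p = 0.802). Near Gm7423 (chr17:15303184-15307258) it was 1248, 2861 and 2793 in sham, 1316, 1245 and 2409 at 1 h and 2658, 4065 and 3865 at 6 h. In Cspg4, the gene of the pericyte proteoglycan NG2 (chr9:56884737-56889223), it was 1021, 3875 and 0 in sham, 0, 0 and 1089 at 10 min, 3465, 3797 and 3797 at 6 h and 3754, 4188 and 3600 at 72 h. Stpg4 had 4435, 4502 and 4334 in sham and 2673, 2437 and 0 at 6 h. Near Gm26146 (chr9:84219519-84224245) the 6 h libraries had 4481, 4437 and 4646 bases and the 24 h libraries 893, 1237 and 1036. The limma F test over the 6 groups gave adjusted p from 0.552 to 0.857 for these 5.

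Of the 641 regions, 176 lay apart from sham at 1 or more times, and 15 did so in 1 direction at 3 or more times, a count made after the values were seen. Of the 15, 5 were higher and 10 lower. Neither count was made for mid-width or all merged regions, so such separation cannot be called particular to broad regions. Leaving out sham replicate 1 gave 15 higher and 61 lower, leaving out replicate 2 gave 21 and 25, and leaving out replicate 3 gave 24 and 38. More were lower than higher in each case, while the count and the balance moved with single sham libraries, all of which are shared by the 5 comparisons, and with having 3 rather than 2 values to separate from.

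Rlf, a zinc finger gene (chr4:121171934-121177471, 5538 bases), was the only broad region below sham at all 5 times. Sham libraries had 4855, 5071 and 4881 covered bases. The 10 min libraries had 4789, 4757 and 4577 bases, the 1 h libraries 3622, 2728 and 4756, and the 6 h libraries 2537, 3380 and 2925. The 24 h libraries had 4277, 4579 and 1261 bases and the 72 h libraries 3784, 4851 and 1893. All 15 MI libraries lay below the 3 sham libraries, by 4 bases for the nearest at 72 h. The limma difference ran from -4.1 percentage points at 10 min (adjusted p = 1.0) to -35.9 at 6 h (adjusted p = 0.849).

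Regions apart from sham at 4 times were Hivep2, Gm52638, the Itpr2 region at chr6:146326317-146330689 and the region near 1810014B01Rik on the lower side. Hivep2, a zinc finger transcription factor gene (chr10:14127576-14133034), had 4659, 4765 and 4866 bases in sham and 2261, 0 and 3423 at 10 min, and 72 h replicate 2 with 4912 bases was above sham. Gm52638 (chr3:96365852-96372863) had 5086, 4797 and 3898 bases in sham, 0, 1887 and 1976 at 24 h and 4898, 3317 and 4774 at 6 h. On the higher side were the regions near Gm40658, near Ercc4 and near Gm17019. Near Gm40658 (chr13:4901225-4905638) sham had 1963, 2068 and 1106 bases and 10 min 3894, 4349 and 2265. Near Ercc4, a DNA repair nuclease gene (chr16:13104374-13108576), sham had 2288, 1902 and 2039 bases, while the 12 libraries from 1 h onwards had 2380 to 2983 and the 10 min libraries 3786, 2643 and 964. Near Gm17019 (chr5:15053000-15057894) sham had 0, 1571 and 1609 and 1 h 1934, 2045 and 2666.

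**Figure D5:**
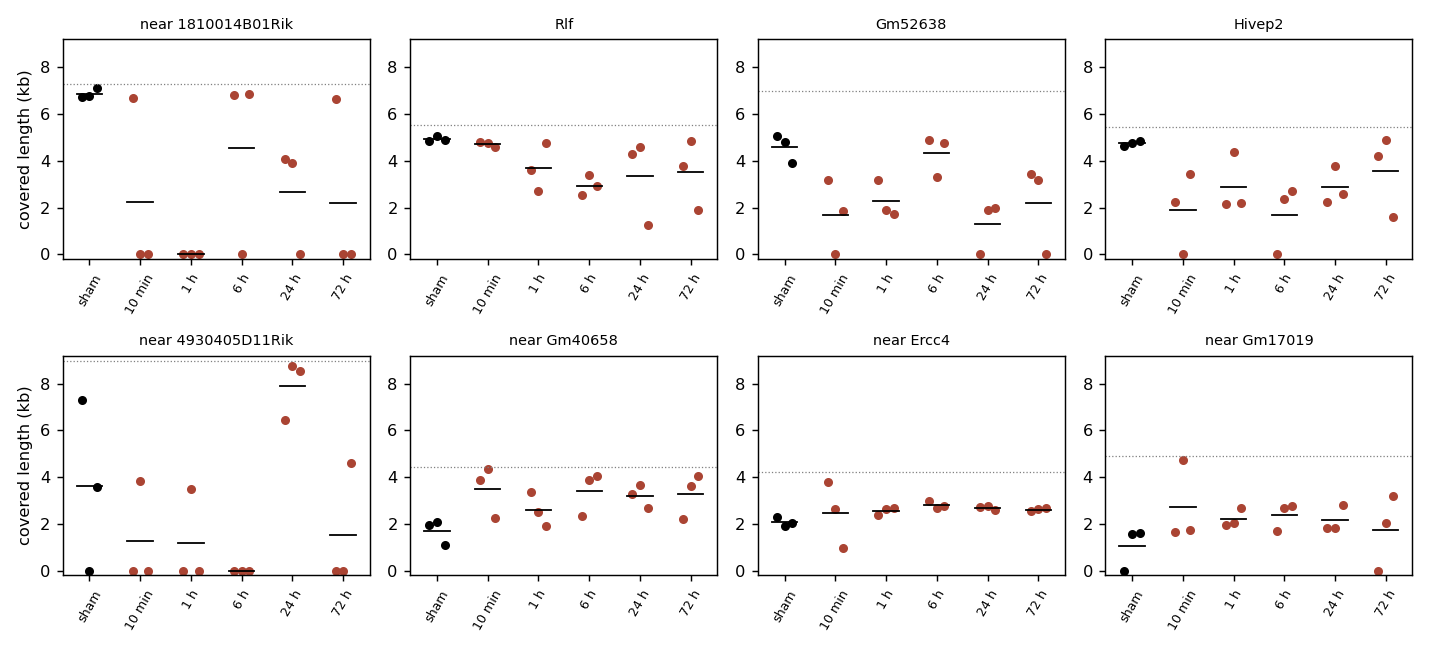
Covered length in kb in each library by group for 8 broad regions, with 3 libraries per group; short lines are means and the dotted line is the width of the region. In the region near 1810014B01Rik the 3 sham libraries lie between 6745 and 7099 bases and most MI libraries near 0 or near full width, while in Rlf all 15 MI libraries lie below sham.

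A few broad regions were covered in full or not at all. With at least 75% of the width under peaks in a library counted as full, 7 regions (1.09%) were full or empty in each of the 18 libraries with at least 2 of each kind, against 1.5% of mid-width regions. At 60% the counts were 11 (1.72%, against 5.02%) and at 90% they were 2 (0.312%, against 0.322%), limits added after the first result. The clearest lay near Gm32719 (chr12:20227111-20235051, 7941 bases), with 7164 to 7873 covered bases in 10 libraries and none in 8. Every group had some of these 10 libraries: 2 each in sham, 10 min, 6 h and 72 h, and 1 each in 1 h and 24 h. A further 3, all in the chromosome 6 cluster, also had this pattern: Gm40367 in 10 libraries, Gm40365 with Gm36327 in 7 and Gm40364 with Gm40363 in 8. Gm40365 with Gm36327 (chr6:47672732-47677107) had 3613, 3896 and 3621 bases in sham, none at 1 h or 6 h, and 3626, 3581, 4216 and 3631 in 4 other libraries. The near copy in the same cluster, Gm40363 with Gm52861 (chr6:47736881-47741097), had 1852 to 3949 bases in all 18 libraries.

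The region near 4930405D11Rik (chr11:90965091-90974070, 8980 bases) lay 69.9 kb from that gene and separated MI times from one another rather than from sham. It had 7290, 0 and 3558 covered bases in sham, 0, 3839 and 0 at 10 min and 0, 3504 and 0 at 1 h. No 6 h library had a covered base, the 24 h libraries had 6440, 8741 and 8526, and the 72 h libraries 0, 0 and 4608. The 24 h libraries stood above every other library except sham replicate 1, which lay within their range, and the limma F test over groups gave an adjusted p of 0.918.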

How the data were processed

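MeDIP-seq peak lists of 18 mouse libraries were used, with 3 mice in each of 6 groups taken from the sample titles. Bowtie2, MACS2 and the build mm10 are named in the submitters' processing notes, without versions. Per the labels' protocols, DNA was sheared before immunoprecipitation and sequenced in pairs. Each deposited list gives a position, a name and a score per peak. The score is the authors' own value, its scale is not given in the sources used here, and its lowest value is 50. How reads with several matches were treated is not given in the sources used here. The lists hold no read counts, so depth is unknown.

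Peaks of all lists that shared 1 base or more were joined, and autosomal regions of at least 4000 bases were kept. The members and gene lists were chosen with earlier results of these data known. Covered bases per region and library were computed in Python 3.11.15 with numpy 2.4.6, pandas 2.3.3 and scipy 1.17.1, and figures were drawn with matplotlib 3.10.9. Library measures were compared by 100000 relabelings over the 6 groups and by exact permutation of 3 against 3 libraries, with Benjamini-Hochberg adjustment. The percent of each region under peaks was fitted with limma 3.58.1 in R 4.3.3, with a trend, over regions with a peak in at least 3 libraries, with a call at an adjusted p under 0.05. The limma step was tested on simulated data. Genes and promoter windows came from RefSeq tables of GRCm38.p6, the same assembly as mm10.

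Named regions were the 10 widest, the 2 largest rises and 2 largest falls at each time among regions whose ranges did not overlap sham, the 5 with the smallest limma F p, the 3 on each side of the width limit, the 5 with the longest stretch covered in all libraries and those in listed genes. Other regions were named after their values were seen, among them those with a score of at least 500, those apart at 3 or more times, those full or empty, near copies, and those in further genes. Alternatives changed the width, the score minimum, the number of peaks per library, the overlap that merges peaks, the scale, the regions fitted and the libraries. Replicate numbers were checked as pairs: same-numbered libraries of different groups had a median correlation of their deviations of 0.00024 (-0.0980 to 0.149 over 45 pairs, 5 over 0.1). Such a correlation over regions leaves out a shift of a whole library, so it cannot show whether same-numbered libraries share one. In covered percent, replicate 2 was the highest library in sham and at 6 h, 24 h and 72 h, but not at 10 min or 1 h. The main tests did not pair the mice, and results with the number as a block are given below.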

Additional observations from a re-analysis of the deposited data

Results flagged for a closer look

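In the share of each list that lay in broad regions, every library at 6 h was above the sham mean of 2.99% and every library at 72 h was below it. The means were 3.13% at 6 h and 2.93% at 72 h, which differ by 0.204 percentage points. This difference between times was not tested, and the sham libraries themselves ran from 2.82% to 3.19%. List length also differed, with a mean of 42620 peaks at 6 h and 56084 at 72 h. When each list was cut to its 34255 highest-scoring peaks, the 6 h mean lay 0.0283 percentage points below sham (-0.0283). The 72 h mean then lay 0.0150 above sham, so both signs were opposite to those in the full lists. The part of list length in this pattern was not tested.

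In the region near 4930405D11Rik, every library at 24 h was above the sham mean of 3616 bases and every library at 6 h was below it. The means were 7902 bases at 24 h and 0 bases at 6 h, a difference of 7902 bases that was not tested. It is 1 of 2 pairs of times with such a pattern in this region. The sham libraries ran from 0 to 7290 bases, so the spread within sham was nearly as large as the difference.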

How the results depend on the processing

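Counts of regions apart from sham moved with the width limit. In the order of the 5 times they were 246, 270, 272, 244 and 223 with a limit of 3000 bases, and 16, 21, 17, 21 and 23 with 5000 bases. With peaks of a score of at least 100 they were 18 at 10 min, 30 at 1 h, 30 at 6 h and 19 at 24 h, and with equal numbers of top-scoring peaks 30 at 10 min. These settings include more or fewer regions or peaks by construction. Leaving out 1 library at a time gave 89 to 109 at 10 min, 101 to 142 at 1 h, 94 to 129 at 6 h, 92 to 122 at 24 h and 102 to 110 at 72 h, and regions apart at 3 or more times then numbered 46 to 76, since fewer values have to separate.

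Differences from sham in the library measures changed sign under several settings, and the cause was not tested. In the share of the list they were 0.182 at 24 h with 3000 bases, and -0.0217 at 10 min and 0.00927 at 72 h with 5000 bases. With equal numbers of peaks the share differences were -0.0882 at 10 min, -0.0345 at 1 h, -0.0283 at 6 h and 0.0150 at 72 h, and those of covered percent were 0.117 at 10 min, 2.14 at 6 h and -1.23 at 72 h. Leaving out 1 library at a time, covered percent differed by -5.75 to -1.17 at 10 min, -8.50 to -3.91 at 1 h, -6.36 to -0.0827 at 6 h, -6.94 to -1.66 at 24 h and -1.10 to 3.49 at 72 h. The share differed by -0.00477 to 0.182 at 10 min, -0.0126 to 0.174 at 1 h, 0.0550 to 0.241 at 6 h, -0.117 to 0.0696 at 24 h and -0.149 to 0.0369 at 72 h. The share of variance between groups was 0.231 to 0.452 for covered percent, 0.257 to 0.482 for the share and 0.296 to 0.495 for regions detected.

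In limma, 1 broad region passed for any group with all regions fitted, and 1 at 72 h and 1 for any group on the log2 scale. With scores of at least 100, 17 of the 20 named differences in covered bases were 0 and Myl12b at 72 h was 393. With equal numbers of peaks, 2 were 0, 11 more shrank by over 1.5 times and 7 did not. Leaving out 1 library reversed none of the 20. Merging at 100 bases of overlap was not run for named regions.

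With the replicate number as a block, the share of variance between groups was 0.467 for covered percent (permutation p = 0.209, adjusted p = 0.314), 0.336 for the share of the list and 0.493 for regions detected, and limma called 0 broad regions in each comparison. Without the block the share of variance for covered percent was 0.302. The block changed no call among broad regions, while over all 84637 regions the calls for any group went from 3 to 1.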

Other observations

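The 13 merged regions of at least 4000 bases on chromosomes X and Y entered no comparison. Their covered length in sham libraries had a mean of 35.9 kb and a highest value of 39.7 kb. The means were 33.8 kb ± 5.57 at 10 min, 24.5 kb ± 8.67 at 1 h, 32.9 kb ± 14.7 at 6 h, 34.7 kb ± 4.04 at 24 h and 33.0 kb ± 2.10 at 72 h (SD, n = 3 each).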
